A study of Mus musculus with 32 samples.

Results

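Monocytes that enter a gut emptied of its macrophages are known to replace them. Here the comparison was between the monocyte graft itself and the cells it had become in the ileum 8 days after transfer. It was made on 7 of the 32 mouse libraries of the series, namely 3 of the graft and 4 of its ileal progeny of day 8, chosen by the organ and day that the labels give. The graft was sorted from bone marrow of Cx3cr1 GFP/+ donors carrying CD45.1, as CD117- CD11b+ CD115+ Ly6C+ GFPint cells. The labels of these libraries name blood as the organ, the Itgax-DTR/GFP genotype and a CD45+CD11b+CD115+Ly6C+/- gate, and no diphtheria toxin. The ileal cells came from bone marrow chimeras, in which irradiated C57BL/6J mice carried marrow with the Itgax-DTR/GFP transgene. The CD11c (Itgax) promoter places the receptor for diphtheria toxin on dendritic cells and macrophages of marrow origin, and the hosts received the toxin before and after the transfer. The ileal gate is given as DAPI-CD45+CD11b+CD64+Ly6C-MHCII+, with CD45.1 and GFP marking graft cells. The paper describes the MHCII+ scheme for resident macrophages. For graft-derived cells it names sorting by CD45.1 and GFP, and describes them as positive for CD11b and CD64 and without Ly6C. The groups were also isolated differently. Per the paper, marrow was flushed cold and separated on Ficoll, whereas gut pieces were shaken warm with EDTA and then with collagenase. Changes from isolation and from differentiation cannot be told apart in this comparison. The labels state neither ages nor how many animals a library holds, so that the p-values measure the spread between these libraries only.

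Ly6C+ monocytes leave the marrow with neutrophil-like granule proteases, adhesion molecules for vessel walls and the chemokine receptor CCR2. In the lamina propria they are known to lose Ly6C and CCR2 and to take up MHC class II molecules, which present peptides to CD4+ T cells. Resident gut macrophages make the C1q complex, the first component of classical complement, and clear apoptotic cells with receptors such as AXL and the bridging proteins GAS6 and MFGE8. The paper describes short-lived cells among them, and long-lived ones that can renew themselves. Blood monocytes constantly refill the compartment.

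Promoters of both ends of this course are shown, since class II and C1q genes were among those that went up and granule proteases among those that were lost. Each sequence was taken from RefSeq for GRCm38.p6 and spans 250 bases before to 50 bases after the annotated start, 5′ to 3′ on the strand of the gene. Capitals mark GATTGG, the Y box of class II promoters and an inverted CCAAT box, or GAGGAAG, a purine-rich box read by ETS factors such as PU.1. Both were searched on both strands, and a match on the minus strand is printed as its reverse complement.
H2-Aa: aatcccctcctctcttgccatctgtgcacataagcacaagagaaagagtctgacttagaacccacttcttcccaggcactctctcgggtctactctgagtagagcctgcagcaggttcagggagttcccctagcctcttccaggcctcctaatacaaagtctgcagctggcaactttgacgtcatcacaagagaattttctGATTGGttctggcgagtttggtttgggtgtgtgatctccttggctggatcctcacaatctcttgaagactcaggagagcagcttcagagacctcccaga
H2-Eb1: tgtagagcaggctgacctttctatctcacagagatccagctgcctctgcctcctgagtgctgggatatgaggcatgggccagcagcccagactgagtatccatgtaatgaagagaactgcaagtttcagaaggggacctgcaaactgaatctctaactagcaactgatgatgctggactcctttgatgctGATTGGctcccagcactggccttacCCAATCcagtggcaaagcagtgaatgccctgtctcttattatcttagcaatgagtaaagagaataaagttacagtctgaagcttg
C1qb: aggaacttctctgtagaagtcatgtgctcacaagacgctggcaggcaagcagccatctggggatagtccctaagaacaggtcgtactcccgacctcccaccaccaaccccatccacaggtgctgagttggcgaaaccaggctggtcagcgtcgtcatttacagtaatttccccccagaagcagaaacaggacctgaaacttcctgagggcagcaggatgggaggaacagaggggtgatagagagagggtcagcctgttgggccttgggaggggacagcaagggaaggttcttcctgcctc
C1qc: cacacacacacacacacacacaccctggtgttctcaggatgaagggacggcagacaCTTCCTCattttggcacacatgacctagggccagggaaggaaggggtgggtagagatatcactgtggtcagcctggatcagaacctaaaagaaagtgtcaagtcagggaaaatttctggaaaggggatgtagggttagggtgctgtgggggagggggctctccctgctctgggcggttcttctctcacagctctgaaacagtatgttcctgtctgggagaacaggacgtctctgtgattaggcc
Elane: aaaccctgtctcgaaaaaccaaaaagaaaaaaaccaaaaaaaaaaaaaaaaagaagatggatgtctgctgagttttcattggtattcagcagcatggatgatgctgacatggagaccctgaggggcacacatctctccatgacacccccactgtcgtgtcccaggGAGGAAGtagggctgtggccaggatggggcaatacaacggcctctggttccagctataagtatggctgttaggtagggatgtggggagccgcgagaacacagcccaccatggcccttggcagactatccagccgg
Prtn3: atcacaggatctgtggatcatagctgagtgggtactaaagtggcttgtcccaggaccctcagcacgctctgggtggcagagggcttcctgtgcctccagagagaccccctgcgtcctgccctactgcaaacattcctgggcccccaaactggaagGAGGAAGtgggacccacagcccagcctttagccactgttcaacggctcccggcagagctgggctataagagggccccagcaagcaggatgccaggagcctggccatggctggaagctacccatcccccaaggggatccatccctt
The H2-Aa and H2-Eb1 windows lie on chromosome 17, those of C1qb and C1qc on chromosome 4 and those of Elane and Prtn3 on chromosome 10. The table of promoters held no entry for C1qa or H2-Ab1. GATTGG began 49 bases before the start of H2-Aa, and 60 and 35 bases before that of H2-Eb1, where the nearer match was on the minus strand. GAGGAAG began 85 bases before the start of Elane, 95 bases before that of Prtn3 and, on the minus strand, 194 bases before that of C1qc. The C1qb window held neither, and TTNNGCAA, a C/EBP site, was found in none of the 6. Of all 32851 promoter windows of this length, 16.1% held GATTGG, 13.6% GAGGAAG and 10.8% TTNNGCAA.

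The graft libraries held 2447862 to 3639328 reads on genes and those of the ileum 1505235 to 1915930, which was 68.7 to 70.5% and 49.8 to 64.6% of mapped reads. Levels are given as normalized reads, the counts of a gene per 10000000 mapped reads, and 3 counts correspond to a mean of 7.17 normalized reads in the graft and 9.62 in the ileum. Because reads come from transcript 3′ ends, levels are compared between libraries and not between genes. Replicate 4 of the ileum stood apart, with a correlation of 0.927 to 0.947 with the others and 36.4% of its reads on its 50 highest genes, against 18.1 to 25.6% in replicates 1 to 3. Counting intervals and floors below cover counting error only.

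Markers of other cells of the gut wall were also read in the ileal libraries. All 22 tested enterocyte genes, 26 of 27 of the epithelium and all 20 of stroma were higher than in the graft. The summed level of the 27 epithelial genes was 975 to 1055 normalized reads in the graft and 35470 to 70697 in the ileum. The 26 stromal genes summed to 149 to 218 against 9300 to 22685, and 16 of them had no read in any graft library. The sum of 20 genes used by leukocytes of all kinds, among them Ptprc and Coro1a, lay between 135589 and 148163 normalized reads in the graft and between 8619 and 42503 in the ileum, with the lowest sum in replicate 4, and 15 of the 20 were lower. Changes of single genes against the graft are therefore given on the TMM scale of edgeR. Where their direction or call differs relative to these 20 genes, that is given too. For lists, counts relative to these 20 genes are given only in part. Single genes compared with other days or the colon are given with TMM alone. Fold bounds (at least so many fold) and ratios with counting intervals are per mapped reads instead. In bulk samples, fewer cells of a type and less RNA per cell cannot be told apart. How far RNA of other cells entered each value was not tested.

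**Figure D1:**
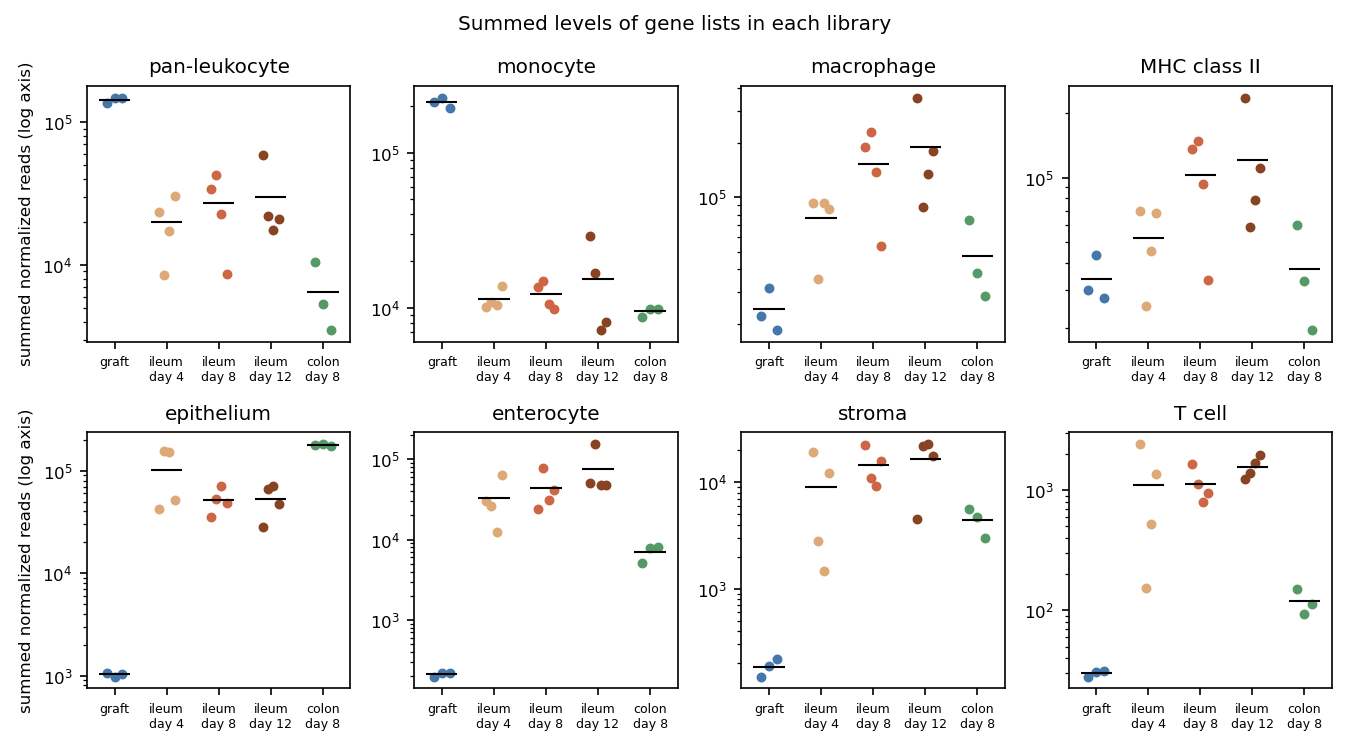
Summed normalized reads of 8 gene lists, on log axes, in the graft, in the ileum at days 4, 8 and 12 and in the colon at day 8. Points are libraries and bars are group means. The pan-leukocyte sum lies at 135589 to 148163 in the graft and at or below 42503 in the ileum of day 8, while epithelial and stromal sums are higher in every ileal library than in the graft.

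From the graft to the ileum of day 8, genes of marrow monocytes fell and most genes of complement and tissue macrophages rose. Genes of the peptide-binding chains of class II rose too, although the class II list as a whole was called about as often as all tested genes. Of 11842 genes tested with edgeR's quasi-likelihood test, 4066 were higher in the ileum (34.3%) and 2313 lower (19.5%) at a Benjamini-Hochberg adjusted p under 0.05, 53.9% in either direction, with a median log2 fold change of 0.20 over all genes. Every ileal library lay above every graft library for 24.5% of genes and below for 36.1%. The dates in the labels set the libraries in 3 experiments. Experiment 2 held graft replicate 1 with ileal replicates 1 and 3, and experiment 3 graft replicate 2 with ileal replicates 2 and 4. Without ileal replicate 4 the counts were 3951 and 2178. With the experiment as a block in a fit of the 2 groups alone they were 2453 and 1389. The balance of directions depended on the scale. It was 63.7% higher with TMM, 42.4% when only mapped reads were used (3096 higher and 4205 lower), 37.2% with limma, and 98.7% relative to the pan-leukocyte genes (9624 higher, 81.3% of the tested genes, and 127 lower, 1.07%). The median over all genes moved to -0.35, -0.29 and 2.41 with these. All 127 genes lower on the pan-leukocyte scale were also among the 2313. Counts for lists of genes below are to be read against these shares of all tested genes.

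C1qa encodes the A chain of C1q and lies on chromosome 4 (mm9, 136451831 to 136454759, minus strand). It had 39.3, 36.8 and 14.5 normalized reads in the 3 graft libraries and 22053, 42182, 16505 and 4935 in those of the ileum. The lowest ileal library, replicate 4, was still far above the highest of the graft. The log2 fold change was 9.91 ± 0.98 (SE, n = 3 and 4, edgeR, Benjamini-Hochberg adjusted p = 1.6e-08). Within the experiments it was 9.20 in experiment 2 and 9.48 in experiment 3, as the log2 ratio of TMM-scaled CPM with 1 added to each.

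H2-Ab1 encodes the beta chain of I-A, the class II molecule that the gate given for the ileum selects for (chromosome 17, 34400172 to 34406363, plus strand). If MHCII was used in the sort, its level checks the sort, and it is therefore not taken as an independent result. The graft libraries held 1258, 2157 and 547 normalized reads and the ileal ones 39772, 29318, 23679 and 7433. The groups did not overlap, and the log2 fold change was 4.74 ± 0.80 (adjusted p = 2.6e-05).

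Axl encodes a receptor tyrosine kinase that binds phosphatidylserine on dying cells through GAS6 (chromosome 7, 26541519 to 26573752, minus strand). It was present in the graft at 104, 196 and 124 normalized reads and reached 732, 691, 462 and 608 in the ileum. Unlike C1qa, it was not lowest in replicate 4. It rose by 2.70 ± 0.40 on the log2 scale (adjusted p = 6.21e-06), the smallest change of the 3 markers, and the groups did not overlap.

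**Figure D2:**
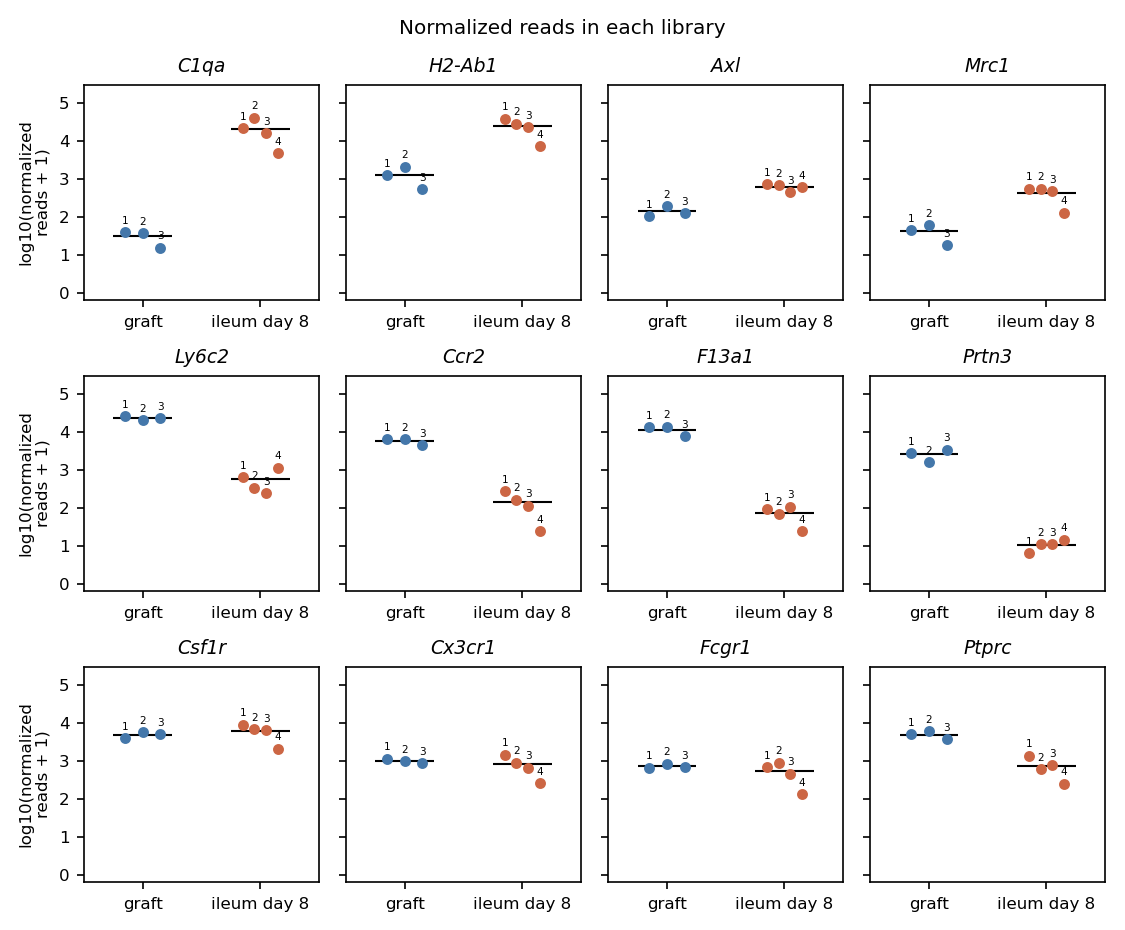
Normalized reads of 12 genes in each library, as log10(normalized reads + 1), with the replicate number above each point and the group mean as a bar. C1qa, H2-Ab1, Axl and Mrc1 are higher in all 4 ileal libraries, Ly6c2, Ccr2, F13a1, Prtn3 and Ptprc lower, and Csf1r, Cx3cr1 and Fcgr1 overlap between the groups.

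Most of the complement list went up. Of 18 tested genes 13 were higher, 2 lower and 3 did not pass, with a median log2 fold change of 5.65, or 4.21 when genes without graft reads were set at their bound. C1qb and C1qc, the other chains of C1q, rose by 8.67 ± 0.93 and 9.00 ± 0.89 (adjusted p = 6e-08 and 1.72e-08). C3ar1, the receptor for the C3a fragment, rose by 5.64 ± 0.82, and Cfb, factor B of the alternative pathway, by 4.08 ± 0.57. C3 itself went the other way. The graft held 4303, 5107 and 6294 normalized reads of C3 and the ileum 244, 337, 321 and 71.4, so that it fell by 3.95 on the log2 scale (SE 0.45, adjusted p = 1.38e-07), and it was also lower relative to the pan-leukocyte genes (-1.95, adjusted p = 0.00387). Serping1, the C1 inhibitor, and the protease gene C1s1 had no graft read and were at least 94.9-fold and 42.0-fold higher. Both are also known to be expressed by stromal cells, whose markers were higher in the same libraries.

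Genes of the peptide-binding chains of class II rose. Of 13 tested genes 7 were higher and none lower by edgeR, with a median of 1.58. This was 53.8% called, near the 53.9% of all genes. By mapped reads alone 6 were higher and 1 lower, and 12 were higher relative to the pan-leukocyte genes. H2-Eb1 went from 337, 903 and 211 normalized reads to 19416, 31088, 15732 and 5774, a log2 fold change of 5.69 ± 0.79 (adjusted p = 2.51e-06). H2-Aa rose by 4.02 ± 0.70 and Cd74, the invariant chain, by 4.33 ± 0.72. Ciita, the master activator of class II transcription, had 75.8, 207 and 114 normalized reads in the graft and 802, 890, 338 and 187 in the ileum. Replicate 4 of the ileum overlapped with the graft here, and the log2 fold change of Ciita was 2.53 ± 0.72 (adjusted p = 0.00464). These genes go with the MHCII+ gate given for the ileum, which the paper does not name for graft-derived cells. In what share they follow from it cannot be told apart.

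Genes of tissue macrophages rose with them. Of 25 tested, 18 were higher, none lower and 7 did not pass, with a median of 3.75. By mapped reads alone 17 were higher and 3 lower, and relative to the pan-leukocyte genes 23 were higher. Apoe, the lipid carrier, went from 5572, 11345 and 4836 normalized reads to 102755, 111431, 73324 and 31537 (log2 fold change 3.95 ± 0.69, adjusted p = 4.36e-05). Mrc1, the mannose receptor CD206, went from 44.9, 60.1 and 17.0 to 558, 563, 489 and 129 (3.89 ± 0.59, adjusted p = 7.89e-06). For both, all ileal libraries lay above the graft and replicate 4 was the lowest of them. Pf4, a platelet and macrophage chemokine, rose by 9.88 ± 0.95 from 4 graft reads in all. Cd63 and Cd81, tetraspanins of endosomes and the cell surface, rose by 7.48 ± 0.59 and 6.34 ± 0.53, and Gpnmb, a lysosomal glycoprotein, by 6.27 ± 0.90. Itgax, which encodes CD11c, rose by 6.72 ± 1.09 from a mean of 13.7 ± 8.92 normalized reads (SD, n = 3) to 1119 ± 644 (SD, n = 4). The scavenger receptor Cd163 reached a mean of only 94.7 ± 69.7 normalized reads (log2 fold change 3.28 ± 1.16, adjusted p = 0.0201), and the call was lost without graft replicate 1, graft replicate 3 or ileal replicate 3 (adjusted p = 0.0524 to 0.0715) and with limma (0.0961).

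Several genes that define mononuclear phagocytes did not pass on the TMM scale. Csf1r, the receptor for CSF1 and the CD115 of the graft gate, had 4000, 5784 and 5207 normalized reads in the graft and 9147, 7096, 6472 and 2158 in the ileum (log2 fold change 0.81 ± 0.61, adjusted p = 0.275). Cx3cr1, the fractalkine receptor that drives GFP in the donors, was at 0.23 ± 0.53 (adjusted p = 0.745). Fcgr1, the CD64 of the ileal gate, was at 0.03 ± 0.56 (adjusted p = 0.971), and Adgre1, which encodes F4/80, at -0.86 ± 0.49 (adjusted p = 0.147). Adgre1 passed as lower by mapped reads (0.0205), with limma (0.00993), with the experiment as a block in the 2 groups alone (0.0326) and without ileal replicate 1 (0.0469). The groups overlapped for each of these genes, and replicate 4 was the lowest ileal library for each. Relative to the pan-leukocyte genes all were higher, by 2.81, 2.15, 1.90 and 1.16 (adjusted p = 3.73e-05, 0.00133, 0.00122 and 0.0484). Cd68, a lysosomal macrophage glycoprotein, was at -1.12 ± 0.49 with TMM (adjusted p = 0.0583), but passed as lower in 9 alternatives, among them the block (0.036), DESeq2 (0.0486), limma (0.00249) and mapped reads (0.00827), and was at 0.79 on the pan-leukocyte scale (adjusted p = 0.124). Ptprc (CD45), which both gates select, fell by 2.22 on the log2 scale (adjusted p = 0.00196), and Itgam (CD11b), likewise in both gates, by 2.16 (adjusted p = 0.00323), while relative to the pan-leukocyte genes neither passed.

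Of 19 tested genes for the uptake of apoptotic cells, 9 were higher and 4 lower, with a median of 1.23, and relative to the pan-leukocyte genes 15 were higher and none lower. With TMM 68.4% of the list were called, against 53.9% of all tested genes. On the pan-leukocyte scale 81.3% of all tested genes were higher. Gas6, a bridging protein, had 1 read in the 3 graft libraries and 792, 1625, 940 and 513 normalized reads in the ileum, a ratio of 1232 with a counting interval of 221 to 48686 (edgeR adjusted p = 1.27e-09). Mfge8, the other bridging protein, rose by 3.12 ± 0.48, from a mean of 199 ± 24.6 normalized reads (SD, n = 3) to 1144 ± 276 (SD, n = 4). Stab1, a scavenger receptor that binds phosphatidylserine, rose by 9.16 ± 1.06, and the lipid receptor Cd36 by 4.84 ± 0.73. Abca1, the cholesterol exporter that works after uptake, rose by 4.65 ± 0.67. Gas6, Mfge8, Stab1 and Cd36 are also known from endothelium or other stroma. The 4 genes that were lower were Dock2, Abca7, Lrp1 and Elmo1, none of which was lower relative to the pan-leukocyte genes.

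Almost the whole monocyte list was lower. Of 24 tested genes 23 were lower and none higher, with a median log2 fold change of -5.97, or -5.81 with genes at 0 in the ileum set at their bound, and 17 were lower relative to the pan-leukocyte genes. Ly6c2, which encodes the Ly6C of both gates and whose level thus checks the sort, had 26717, 20738 and 23435 normalized reads in the graft and 648, 344, 244 and 1173 in the ileum. It fell by 4.61 (SE 0.83, adjusted p = 6.25e-05), with its highest ileal value in replicate 4. Its reads may be shared with the close paralog Ly6c1 and are uncertain to that extent. Ccr2, by which monocytes leave the marrow, went from 6535, 6518 and 4611 normalized reads to 277, 165, 114 and 23.8 and fell by 4.84 (SE 0.70, adjusted p = 3.77e-06). No ileal library reached the graft for either gene, and both were also lower relative to the pan-leukocyte genes (adjusted p = 0.0459 and 3.39e-05).

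Granule proteases of the marrow were among the most complete losses. Ctsg (cathepsin G), Mpo (myeloperoxidase) and Elane (neutrophil elastase) had no read in any ileal library. From graft means of 714 ± 280, 502 ± 275 and 467 ± 204 normalized reads (SD, n = 3) they were at least 74.2-fold, 52.1-fold and 48.6-fold lower, with adjusted p = 5.95e-08, 0.000106 and 5.57e-05 by edgeR. With DESeq2, Mpo and Elane did not pass (adjusted p = 0.155 and 0.16). Prtn3, proteinase 3, kept 5.42, 10.1, 10.0 and 13.6 normalized reads after 2799, 1645 and 3490 and fell by 7.52 (SE 0.56, adjusted p = 2.52e-10). Graft replicate 2 held the least of all 4 genes. Fcnb, a secreted ficolin of marrow myeloid cells, was at least 25.2-fold lower and Galnt9, a glycosyltransferase gene, at least 61.4-fold. Nfe2, a transcription factor of erythroid and myeloid precursors, fell by 7.77 and Padi4, a peptidylarginine deiminase of granulocytes, by 7.66. In all, 28 genes had at least 50 normalized reads in every graft library and at most 3 counts in every ileal one.

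Secreted and cytoskeletal products of monocytes fell next to these. Chil3 (Ym1) had 9777, 9905 and 7696 normalized reads in the graft and 35.2, 13.5, 0 and 126 in the ileum, a log2 fold change of -7.03 ± 0.86 (adjusted p = 4.12e-07). F13a1, the A chain of coagulation factor XIII, fell by 6.80 and Fn1, fibronectin, by 6.22. S100a4, a calcium-binding protein, fell by 5.99 from a mean of 33082 ± 3589 normalized reads (SD, n = 3) to 358 ± 112 (SD, n = 4). All 4 were lower on the pan-leukocyte scale as well. Lyz2, the myeloid lysozyme, fell by 2.60 with TMM (adjusted p = 0.00122) but was not lower relative to the pan-leukocyte genes (-0.39, adjusted p = 0.492), and its reads may be shared with Lyz1 of Paneth cells.

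**Figure D3:**
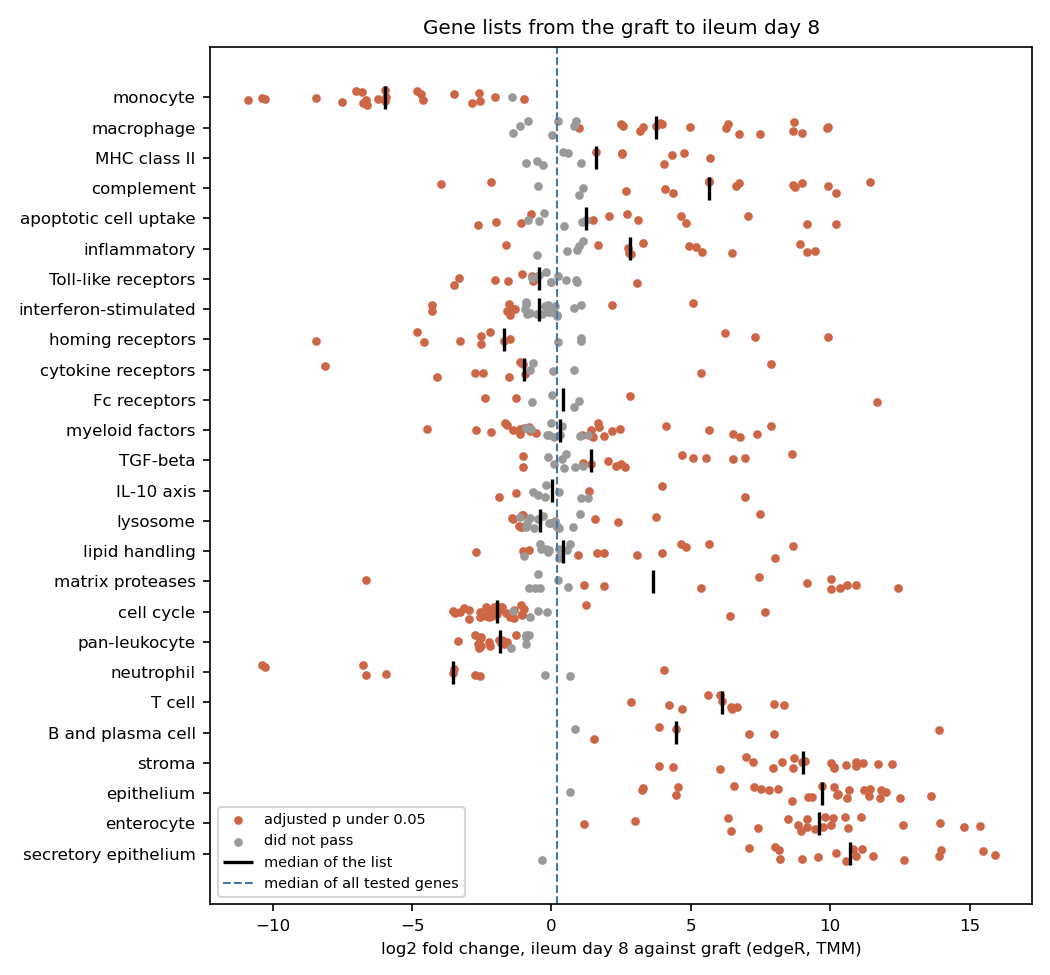
Log2 fold change of each tested gene of 26 lists, ileum day 8 against graft (edgeR, TMM), with passing genes in colour, list medians as black bars and the median of all tested genes (0.20) as a dashed line. Monocyte genes lie lowest (median -5.97) and those of secretory epithelium, epithelium, enterocytes and stroma highest. Neutrophil (-3.52), Toll-like receptor, interferon-stimulated, homing, cytokine receptor, cell cycle, lysosome and pan-leukocyte lists also have negative medians here. Scaled to the pan-leukocyte genes, all of these but the neutrophil and pan-leukocyte lists have more higher than lower genes, as did all tested genes (81.3% higher). The neutrophil list has 3 higher and 5 lower there.

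Receptors for migration and growth factors followed the monocyte list on the TMM scale. Of 15 homing receptors 3 were higher and 9 lower, against 6 and 4 relative to the pan-leukocyte genes. Itgb7, the beta chain of the gut-homing integrin, fell by 4.56 and Selplg, the ligand of P-selectin, by 3.29 (adjusted p = 1.35e-05 and 9.46e-06), and both were lower on the pan-leukocyte scale too. Itgb2, the shared beta chain of leukocyte integrins, fell by 2.52, though not on the pan-leukocyte scale. Ccr9, a receptor of lymphocytes that home to the small intestine, was at least 34.1-fold higher, in libraries where all 11 tested T cell genes were higher. The summed level of 16 T cell genes, tested or not, was 28.1 to 31.5 normalized reads in the graft and 793 to 1640 in the ileum. Of 14 cytokine receptors 2 were higher and 8 lower, against 7 and 2 on the pan-leukocyte scale. Called with TMM were 80.0% of the homing and 71.4% of the cytokine receptor list, against 53.9% of all tested genes. Il17ra went from 4735, 5898 and 6459 normalized reads to 225, 418, 184 and 116 and fell by 4.11 (SE 0.34, adjusted p = 1.12e-09). Flt3, the receptor of dendritic cell progenitors, was at least 11-fold lower. Of 8 Fc receptor genes, Fcgr4 rose by 2.81 ± 0.65 (adjusted p = 0.000847) and the inhibitory Fcgr2b fell by 2.38 (SE 0.42, adjusted p = 5.31e-05), the latter not on the pan-leukocyte scale.

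Most receptors for microbial products and interferon-stimulated genes did not pass on the TMM scale. On the pan-leukocyte scale, on which 81.3% of all tested genes were higher and 1.07% lower, their balance turned with that of the table. Of 17 genes of Toll-like receptor signalling 1 was higher and 7 lower, with a median of -0.46, whereas 12 were higher and 2 lower relative to the pan-leukocyte genes. The 2 were Tlr2, which recognizes bacterial lipoproteins, and Tlr8, an RNA sensor. Tlr2 went from 876, 727 and 736 normalized reads to 86.7, 40.5, 36.8 and 23.8 and fell by 3.49 (SE 0.41, adjusted p = 2.44e-07). Tlr8 fell by 3.32 (SE 0.76). Of 26 interferon-stimulated genes 2 were higher and 7 lower with TMM, against 16 and 2 on the pan-leukocyte scale. The TMM calls were 47.1% of the Toll-like receptor and 34.6% of the interferon-stimulated list, both below the 53.9% of all tested genes. The antiviral genes Mx1 and Oas3 fell by 4.27 and 4.29 and were lower on both scales. Isg15, a ubiquitin-like modifier, rose by 2.18 ± 0.69 (adjusted p = 0.0105, and 0.0715 with limma), with replicate 4 below the graft and the other ileal libraries above it.

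Cytokines and chemokines mostly rose. Of 18 inflammatory genes 12 were higher and 1 lower, with a median of 2.82. Called with TMM were 72.2% of them, against 53.9% of all tested genes. Il1b went from 157, 63.9 and 89.6 normalized reads to 5734, 2286, 2838 and 1292, a log2 fold change of 5.40 ± 0.75 (adjusted p = 2.39e-06). Ptgs2, the inducible cyclooxygenase, rose by 4.95 ± 1.05 and Cxcl2, a chemokine for neutrophils, by 2.77 ± 0.80, although Cxcl2 overlapped with the graft in replicate 4. Nos2 and Cxcl1 had no read in the graft and were at least 20.9-fold and 24.8-fold higher. Both are also known from epithelium or stroma. Only the ileal cells were warmed and digested, and the part of this in the genes of this paragraph was not tested. Il10, the cytokine that restrains gut macrophages, had no read in the graft or in ileal replicate 4 and up to 51.5 normalized reads in the other ileal libraries, with an ileal mean of 32.2 ± 23.4 (SD, n = 4), at least 4.49-fold higher on average (adjusted p = 0.000456). Socs3, which is induced by IL-10 and IL-6 receptors, had 109, 105 and 53.3 normalized reads in the graft and 1106, 1278, 703 and 717 in the ileum (log2 fold change 3.95 ± 0.34, adjusted p = 2.27e-09). Of 12 genes of the IL-10 axis, 3 were higher and 2 lower, against 9 and none on the pan-leukocyte scale. With TMM 41.7% of this list were called, against 53.9% of all tested genes. On the pan-leukocyte scale 81.3% of all tested genes were higher.

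Of 21 genes of TGF-beta signalling 12 were higher and 2 lower, with a median of 1.43, and on the pan-leukocyte scale 19 were higher and none lower. With TMM 66.7% of the list were called, against 53.9% of all tested genes. On the pan-leukocyte scale 81.3% of all tested genes were higher. The receptor Tgfbr2 rose by 2.01 ± 0.39, and its targets Smad7, an inhibitor of the pathway, and Id3, an inhibitor of helix-loop-helix factors, by 2.62 ± 0.28 and 5.53 ± 0.49 (adjusted p = 0.000124, 5.91e-08 and 3.13e-09). For each of these 3 genes the ileal libraries all lay above the graft. The summed level of the 21 genes overlapped, with 5616 to 6632 normalized reads in the graft and 5387 to 8409 in the ileum. Stromal and epithelial markers were higher in the same ileal libraries, and the part of those cells in these values was not tested.

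Among 37 transcription factors of the myeloid lineage 15 were higher and 12 lower, against 27 and 1 relative to the pan-leukocyte genes. With TMM 73.0% of the list were called, against 53.9% of all tested genes. On the pan-leukocyte scale 81.3% of all tested genes were higher. Egr1, an immediate early factor, went from 25.3, 11.6 and 19.4 normalized reads to 3679, 2660, 4096 and 1723, a log2 fold change of 7.87 ± 0.64 (adjusted p = 7.65e-10). All 4 ileal libraries lay far above the graft. The part of the warm digestion of the ileum in this rise was not tested. Nr1h3, the oxysterol receptor LXR alpha, rose by 5.64 ± 0.63, Bhlhe40 by 4.12 ± 0.52, Maf, a factor of macrophage identity, by 2.58 ± 0.50, and Ahr, the aryl hydrocarbon receptor, by 2.17 ± 0.35. Batf3 and Pparg rose by 2.45 ± 0.63 and 1.88 ± 0.53 with replicate 4 within the graft range, and Pparg did not pass with limma (0.65, adjusted p = 0.126). Cebpe, a factor of granule gene expression, went from 230, 180 and 211 normalized reads to 10.8, 6.74, 3.35 and 3.40 and fell by 4.45 (SE 0.63, adjusted p = 4.78e-06), the only factor of the list lower on both scales. Irf5, Zeb2 and Klf4 fell by 2.72, 1.67 and 1.14, though not on the pan-leukocyte scale, and Spi1, which encodes PU.1, by 1.39 (adjusted p = 0.0406), against 0.66 on the pan-leukocyte scale (adjusted p = 0.181). The call of Spi1 was lost without any 1 of the libraries except ileal replicate 1 (adjusted p = 0.0612 to 0.108).

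Cell cycle genes fell from the graft to the ileum on the TMM scale. Of 39 tested 32 were lower and 3 higher, with a median of -1.97, but relative to the pan-leukocyte genes 2 were lower and 5 higher. The TMM calls were 89.7% of the list, against 53.9% of all tested genes. Mki67, a marker of cycling cells, had 2841, 2244 and 3083 normalized reads in the graft and 323, 405, 402 and 177 in the ileum and fell by 2.55 (SE 0.35, adjusted p = 2.14e-06), against -0.42 on the pan-leukocyte scale (adjusted p = 0.512). The D cyclins, which open the G1 phase, changed place. Ccnd3 went from 5794, 6324 and 6645 to 426, 367, 479 and 235 normalized reads (-3.52 ± 0.26, adjusted p = 2.32e-10) and was lower on both scales. Ccnd1 rose by 6.41 ± 0.41 and Ccnd2 by 7.67 ± 0.51, from graft means of 22.5 ± 10.4 and 14.6 ± 11.1 normalized reads (SD, n = 3). Ccnd1 and Ccnd2 are also known from gut epithelium and stroma.

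Of 18 matrix protease and inhibitor genes, 11 were higher and 1 lower, with a median of 3.63, against 9 and 5 by mapped reads alone. Called with TMM were 66.7% of this list, against 53.9% of all tested genes. All 20 tested stromal genes and 26 of 27 epithelial ones were higher in the same libraries, counts that were in part set by the filter. The part of other cells in these values was not tested. Mmp9, a gelatinase, went from 16.8, 40.7 and 67.8 normalized reads to 5942, 10380, 4484 and 969 (7.43 ± 1.10, adjusted p = 5.65e-06), and Mmp14, a membrane-bound collagenase, from no read to a mean of 1508 ± 1171 (SD, n = 4), at least 210-fold higher. Mmp8, the collagenase of neutrophil granules, fell by 6.67 (SE 0.52, adjusted p = 1.26e-09) and lay below the graft in every ileal library. Of 26 lysosomal genes 4 were higher and 7 lower, whereas 15 were higher and none lower relative to the pan-leukocyte genes. The cysteine proteases Ctsl and Lgmn rose by 2.37 ± 0.34 and 3.75 ± 0.64. Of 24 genes of lipid handling 10 were higher and 3 lower, against 20 and none on the pan-leukocyte scale. Fabp4, a fatty acid carrier, rose by 8.03 ± 1.04 and Lpl, lipoprotein lipase, fell by 2.72 (SE 0.39, adjusted p = 4.17e-06), the latter not on the pan-leukocyte scale. Of 25 genes of oxidant production and defence 8 were higher and 8 lower, and 15 higher and none lower on the pan-leukocyte scale. With TMM 42.3% of the lysosomal, 54.2% of the lipid and 64.0% of the oxidant list were called, against 53.9% of all tested genes. On the pan-leukocyte scale 81.3% of all tested genes were higher. Cybb, the core of the phagocyte oxidase, fell by 2.34 (adjusted p = 0.00161), though not on the pan-leukocyte scale.

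**Figure D4:**
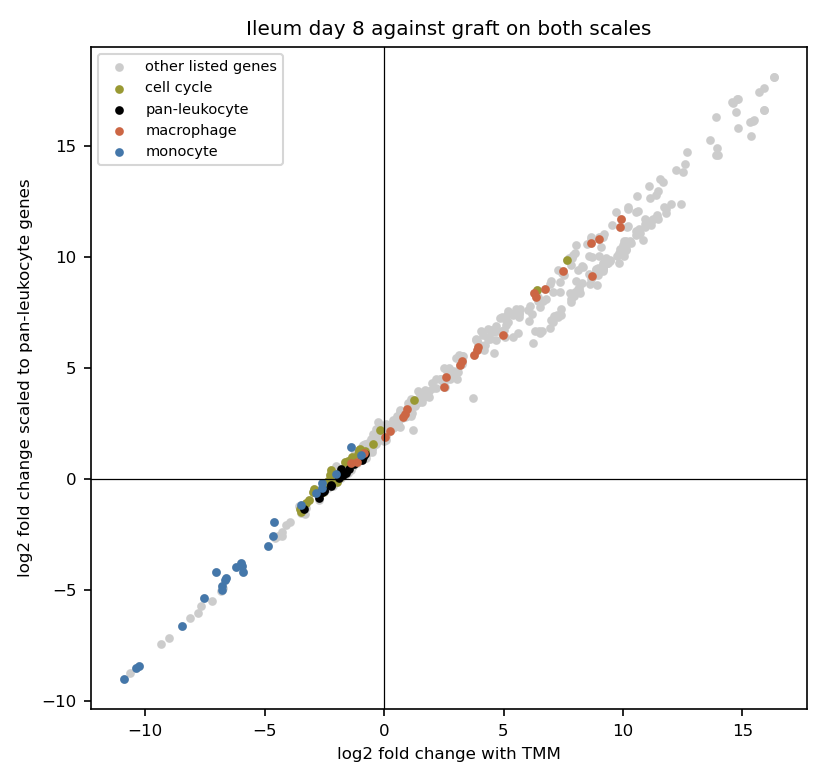
Log2 fold change of the listed genes, ileum day 8 against graft, with TMM (x axis) and scaled to 20 pan-leukocyte genes (y axis). Monocyte genes lie mostly below 0 on both axes and macrophage genes mostly above 0 on both, while cell cycle and pan-leukocyte genes lie below 0 with TMM and around 0 on the other scale. The pan-leukocyte genes set that other scale, so that their place around 0 on it follows from the scaling.

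The largest rises were not genes of macrophages. Of the 10 largest by fitted change, among genes that passed with a mean of at least 200 normalized reads and no overlap, 8 were Defa genes, which encode the alpha-defensins of Paneth cells, and the others were Reg3b, an epithelial lectin against bacteria, and Gm14851. Of 27 Defa symbols 21 passed the filter, and all of these were higher. Among the 27, 8 share a start with another, so that their reads cannot be assigned to single genes with certainty. Defa24 had 1 read in the graft and 12975, 56385, 42851 and 71853 normalized reads in the ileum, with the most in replicate 4. Its ratio was 56635, with a counting interval of 10165 to 2237016. Reg3b had no graft read and 4666, 29011, 7627 and 5282 normalized reads in the ileum. Jchain, which links the IgA of plasma cells, rose by 13.90 ± 1.93, from 6 graft reads in all to 71005, 16886, 15986 and 87470 normalized reads. Epcam, the epithelial adhesion molecule, had 1 graft read and 1309, 2542, 2861 and 1757 normalized reads, and Plvap, of fenestrated endothelium, 2 graft reads and 10383, 4902, 3346 and 5683. The gate selected CD45+ cells, whereas epithelium and endothelium lack CD45. Kit, of mast cells and progenitors and excluded from the graft gate as CD117, was at least 8.33-fold higher, and Cd3d, of T cells, at least 8.82-fold. Lists of further cell types gave the same picture for gut cells, with 17 of 18 genes of secretory epithelium, 9 of 11 of intestinal stem cells (and 1 lower), 24 of 25 gut transcription factors and 6 of 7 B and plasma cell genes higher. These counts too were in part set by the filter. Of 12 neutrophil genes 1 was higher and 9 lower, against 3 and 5 on the pan-leukocyte scale, and of 6 dendritic cell genes 4 were higher and 1 lower. Of 15 genes of retinoid handling 8 were higher and 4 lower, against 11 and 1 on the pan-leukocyte scale. Of 10 genes of the sorting markers 3 were higher and 3 lower, against 7 and 1. Called with TMM were 83.3% of the neutrophil and of the dendritic cell list, 80.0% of the retinoid and 60.0% of the sorting-marker list. The share of all tested genes was 53.9%. Among 772 genes with at most 3 counts in every graft library and at least 50 normalized reads in every ileal one, 79 were on the 8 lists of other cell types and gut factors, 23 on the other 24 lists and 670 on none.

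The ileum of day 8 was also set against the graft-derived cells of other days. Of 11842 genes 2583 had an unadjusted p under 0.05 against day 4, and 608 (5.13%) differed from day 4, 85 higher and 523 lower (4.42%), among them Krt20, a keratin of mature epithelium (-2.24 ± 0.40, adjusted p = 0.00908), Klf4 (-1.83 ± 0.35, adjusted p = 0.00908) and Socs3 (0.97). The count was 0 when the experiment was taken as a block, and also 0 without replicate 2 of day 4. Day and experiment were partly confounded, since replicates 2 and 3 of day 4 were of experiment 1, which held no ileal library of day 8. Their epithelial sums were 157525 and 151098 normalized reads, against 42545 and 51274 in replicates 1 and 4 of day 4 and 35470 to 70697 at day 8. The part of this in the differences was not tested. It was 1348, 375 and 976 without replicates 1, 3 and 4 of day 4, and 390 and 241 without replicates 2 and 4 of day 8. C1qa, H2-Ab1 and Axl were not among them (0.73, 1.24 and 0.87, adjusted p = 0.48, 0.238 and 0.143), and no listed monocyte or macrophage gene was. Between days 8 and 12 edgeR called 0 genes, with 796 at an unadjusted p under 0.05. DESeq2 and limma also called 0, with 909 and 754.

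Between ileum and colon of day 8, from 4 and 3 libraries, 4144 genes (35%) differed, 2163 higher in the ileum and 1981 lower, and 2653 without replicate 4 of the colon. By mapped reads alone the split was 1428 and 2803, and relative to the pan-leukocyte genes 136 and 9131. Of the pan-leukocyte genes, 19 of 20 were higher in the ileum, beside 14 of 25 macrophage genes, and 20 of 27 epithelial genes were lower. C1qa was higher in the ileum by 2.77 ± 0.68 (adjusted p = 0.00377), Csf1r by 2.26 ± 0.64 (adjusted p = 0.00969) and Axl by 1.10 ± 0.37 (adjusted p = 0.0255), whereas Gas6 was lower, with a log2 fold change of -1.51 ± 0.43 (adjusted p = 0.00968). H2-Ab1 did not pass (1.53 ± 0.68, adjusted p = 0.0815). The part of the pan-leukocyte and epithelial genes, which differed between the same libraries, was not tested.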

How the data were processed

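RNA was measured by MARS-seq, which reads transcript 3′ ends. Per the labels and methods, the authors mapped reads to mm9 with HISAT 0.1.6 and counted uniquely mapping sense reads over exons with HOMER (version not given in the sources used here). The deposited values are whole-number read counts per gene without normalization. Nothing says whether the molecular identifiers were collapsed, and reads may therefore not be independent molecules. Of the table, 52 unnamed columns and 6 further library columns were not used.

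Normalized reads are counts per 10000000 mapped reads, from the totals in the headers. Of 24411 genes, genes that reached 50 normalized reads in 3 or more of 25 libraries (7 groups, 1 colon library of day 8 left out as in the study) were tested with edgeR 4.0.16 (TMM, quasi-likelihood, R 4.3.3), with Benjamini-Hochberg adjustment over all of them. The methods name a test per gene on log2 values, and counts called for a count model instead. Alternatives used DESeq2 1.42.0, limma 3.58.1 with a pseudocount of 50, other filters and scalings, fewer libraries and an experiment block. Scaling to the pan-leukocyte genes was chosen after seeing the data. Counting intervals are exact binomial at 95%. The procedure was tested on simulated data in which a small part of the genes changed, equally in both directions. That test could not check the scaling where a large part of the genes changes, as in these data.

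Samples were paired only by experiment, from the dates in the labels, 1 of which was read with its year corrected. Deviations of same-experiment graft and ileal libraries correlated at 0.088, 0.152, 0.043 and -0.09. No 2 replicates agreed within sampling noise. The markers, gene lists and comparisons were chosen with earlier results of these data known. Named genes were the 3 markers, members of 32 lists, the 10 largest rises and falls with a mean of at least 200 normalized reads and no overlap, and the 10 highest genes found on 1 side only. Some genes that met this rule are not reported here.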

Additional observations from a re-analysis of the deposited data

Results flagged for a closer look

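Of 105 genes with printed values, 2 had an ileal library of day 8 far from the other 3, and chance flags about 1 in 20 such groups. Maf was low in replicate 4, at 116 normalized reads, and Reg3b was high in replicate 2, at 29011.

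In graft-derived cells of day 8, ileum and colon differed for C1qa (2.77 on the log2 scale), Csf1r (2.26) and Axl (1.10), which were higher in the ileum, and for Gas6 (-1.51). The 20 pan-leukocyte genes differed between the same libraries by a median of 2.35, above the values of Csf1r and Axl, and relative to them 136 genes were higher in the ileum and 9131 lower. Between days 8 and 4 of the ileum, Krt20 (-2.24), Klf4 (-1.83) and Socs3 (0.97) differed, but no gene passed with the experiment as a block or without replicate 2 of day 4.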

How the results depend on the processing

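Of 105 gene results, 82 kept their direction and their side of the threshold under every alternative. Without a change of sign, 16 of 100 calls were lost under at least 1, and 10 of these losses came with scaling to the 20 pan-leukocyte genes. Changes of sign are counted apart and came in 7 results, 5 of them with that scaling. It also took the lower calls of Klf4, Zeb2 and Spi1. All 5 genes that had not passed did so under at least 1. Of the genes higher in the ileum of day 8 than in the graft, 4066 with TMM, there were 9624 with that scaling, 2642 with limma and 2453 with the experiment as a block in the 2 groups. The genes lower in the ileum, 2313 with TMM, were 127, 4462 and 1389 with these and 4205 with mapped reads alone. Without 1 library each, they ranged from 3619 to 4009 and from 1921 to 2330. Against day 4, the 608 genes became 0 with the block in either fit or with the 2 groups alone, 380 with the left-out colon library, 312 with pan-leukocyte scaling, 994 with DESeq2, 405 with limma and 0 to 1348 without 1 library each. Against the colon, 4144 became 9267 with pan-leukocyte scaling and 2653 to 4064 without 1 library each. With the block in the fit of 25 libraries, the pairing by experiment moved the counts against the graft only to 4017 and 2258.

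Among single genes, pan-leukocyte scaling turned Adgre1 (1.16), Cd68 (0.79), Spi1 (0.66), Klf4 (1.06) and Zeb2 (0.30) upwards. Fcgr1 turned to -0.44 with mapped reads, -0.02 without a filter, -0.01 with filterByExpr, -0.29 with the block, -0.64 with limma and -0.28 in experiment 3, and ranged from -0.25 to 0.32 without 1 library each. Cx3cr1 turned to -0.27 with mapped reads, -0.02 with the block, -0.47 with limma, -0.26 in experiment 3, and ranged from -0.22 to 0.48 without 1 library each. Neither had passed. The cause was not tested. Depth limits genes below about 9.62 normalized reads, the level of 3 counts in the ileum.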
